A study of Mus musculus with 2931 samples.

Results

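Car4, Ednrb, Tbx2, Fibin and Emp2 are 5 marker genes of Car4+ capillaries, the gas-exchange capillary cells of the lung that are also called aerocytes. They were followed here by symbol, as 5 of the 18072 genes counted in 2931 single endothelial cells (EC) of mouse distal lung. The cells came from 10 mouse names, 1 female and 1 male in each of 5 groups. These were embryos at day E18.5, mice kept in normal air until postnatal day P1, P7 or P21, and mice exposed to hyperoxia, that is, to raised oxygen, and taken at P7. No transgene or other agent is named in the labels, and the strain, the oxygen level and the number of animals behind each name are not given in the sources used here. Each cell was sorted into a plate well and made into a library with the Tn5 transposase, without molecular identifiers. The authors gave each cell 1 of 10 subtype labels. The label Car4+ capillaries held 332 cells, 17 to 77 per mouse in the 8 postnatal mice and 0 in both E18.5 mice.

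The wall of an alveolus carries a mosaic of capillary cells. Large, flat aerocytes lie against the epithelium where gas is exchanged, and smaller general capillary cells, here the Early and Late Car4- capillaries, renew the network and serve as its progenitors. The 5 genes encode proteins with different tasks. Car4 is a carbonic anhydrase anchored to the outer cell membrane, where it interconverts carbon dioxide and bicarbonate. Ednrb is a receptor for endothelins, peptides that regulate vessel tone. Tbx2 is a T-box transcription factor, mostly known as a repressor in lung and heart development. Fibin is a small secreted protein whose role in vessels is little known. Emp2 is a tetraspan membrane protein of the PMP22 family that is also abundant in alveolar type 1 epithelium.

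The genes lie at 4 places in the GRCm38 annotation of GENCODE M21, and each is protein coding. Car4 spans chr11:84957786-84966044 on the plus strand and Tbx2 chr11:85832551-85841948 on the same strand. Ednrb spans chr14:103814625-103844402, Fibin chr2:110360917-110363183 and Emp2 chr16:10281749-10313968, all on the minus strand. The windows of 250 bases before the RefSeq start (GRCm38.p6) are shown for Car4 and Emp2, the members with a called change around birth. They lie at chr11:84957504-84957753 (plus strand) and chr16:10313969-10314218 (minus strand), and capitals mark a palindrome in which the ETS core CCGGAA is read on both strands.
Car4: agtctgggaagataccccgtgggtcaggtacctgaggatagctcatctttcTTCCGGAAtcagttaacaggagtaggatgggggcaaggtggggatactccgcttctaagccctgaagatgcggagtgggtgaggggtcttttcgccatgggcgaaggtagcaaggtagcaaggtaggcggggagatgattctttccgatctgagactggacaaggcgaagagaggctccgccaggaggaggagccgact
Emp2: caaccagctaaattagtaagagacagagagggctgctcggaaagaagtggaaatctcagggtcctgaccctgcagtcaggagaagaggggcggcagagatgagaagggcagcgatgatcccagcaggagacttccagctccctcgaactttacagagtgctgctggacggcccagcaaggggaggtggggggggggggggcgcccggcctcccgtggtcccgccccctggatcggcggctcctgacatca
Of the 4 members with a promoter entry (Car4, Ednrb, Fibin and Emp2), the Car4 window alone held the ETS core, which 12% of 32851 windows of the same length held on either strand. None of the 4 windows held the T-box site AGGTGT, the TATA box letters TATAAA or the hypoxia response core ACGTG, which were in 11.8%, 12.4% and 16.6% of all windows. These matches describe letters in a short window and say nothing of what binds there.

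Depth differed between mice. A cell had 42095 to 2967985 reads (median 621406), and the median cell of a mouse had 188610 reads in the male P7 mouse and up to 928377 in the female P7 mouse. Most cells (2694) carried the CD31 gate, CD31 being the endothelial surface protein Pecam1, and 224 a gate named mesench. The cells were sequenced in 9 runs. No cells with identical counts were found. In Car4+ capillaries the 5 endothelial markers summed to 9856 to 16490 CPM (reads per 1000000 reads summed over the cells) per mouse. Fibroblast markers summed to 0.0836 to 24.6 CPM, pericyte and smooth muscle markers to 0.235 to 41.8 CPM and immune markers to 0 to 41.7 CPM, so each lay far below the endothelial markers. Alveolar type 2 markers summed to 29.2 to 121 CPM and type 1 markers to 40.3 to 299 CPM. The lymphatic markers, described below, summed to 395 to 2657 CPM.

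The members differed in abundance within Car4+ capillaries, with Car4 the most abundant by its mean. Reads were summed over the cells of a mouse and scaled to CPM in this way. The level of Car4 was 5832 ± 2261 CPM (SD, n = 8 mice), of Emp2 3584 ± 1295 CPM, of Ednrb 2747 ± 592 CPM, of Fibin 631 ± 485 CPM and of Tbx2 493 ± 161 CPM. Fibin lay below Tbx2 in both P1 mice and the male hyperoxia mouse, and above it in the other 5. The SD is over mice of different ages and treatments. Per kilobase of annotated exon the order of levels was Car4 (2967 ± 1150 CPM per kb), Ednrb (644 ± 139), Emp2 (415 ± 150), Fibin (278 ± 214) and Tbx2 (136 ± 44.4). On that scale Car4 stood clear of the other 4, whereas Ednrb and Emp2, and Emp2 and Fibin, lay within their spread. The Tbx2 and Fibin ranges overlapped as well. Ednrb varied least over mice relative to its mean and Fibin most.

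Every member was higher in Car4+ than in Car4- capillaries in each of the 8 postnatal mice. Since the labels were made from these cells and are named by Car4, this is a description and no test. The ratio of a mouse's Car4+ to its Car4- level ran from 7.14 to 29.2 for Car4 (median 15.3), from 7.56 to 60.0 for Ednrb (median 15.7), from 6.39 to 29.2 for Tbx2 (median 10.6) and from 3.97 to 12 for Emp2 (median 8.49). The ratio for Fibin had a median of 20.7, and its highest value is not a measure of size because the Car4- sum held next to no Fibin reads in that mouse. Emp2 thus had the narrowest gap of the 5.

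**Figure D1:**
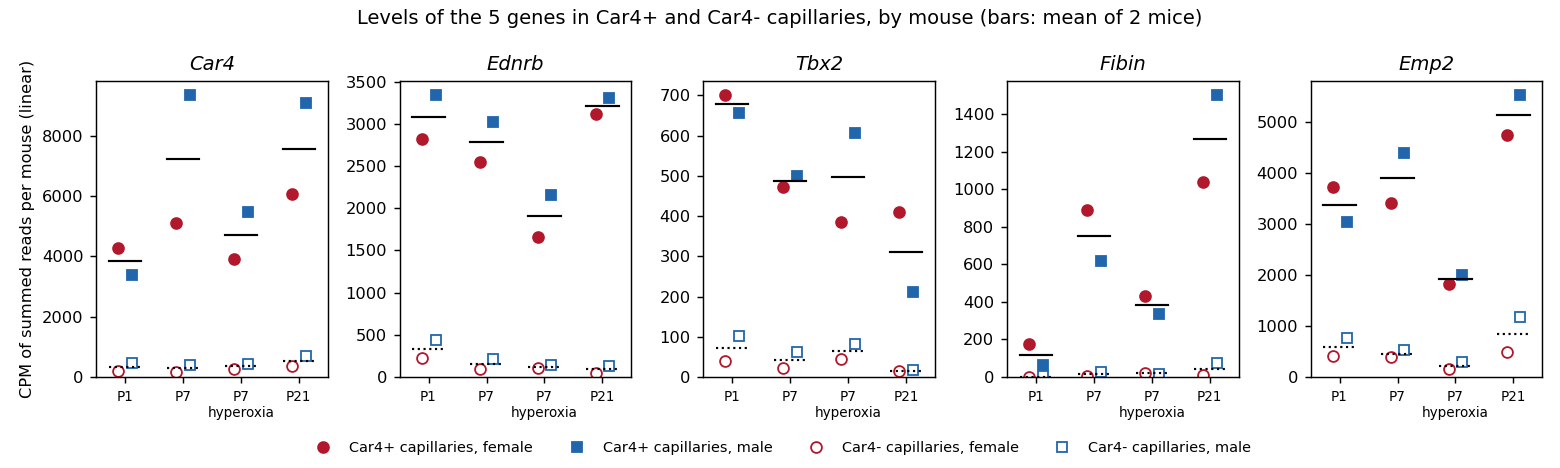
CPM of the 5 genes in reads summed per mouse (vertical axis, linear, own scale for each gene) over the postnatal groups (horizontal axis), for Car4+ capillaries (filled symbols) and Car4- capillaries (open symbols), with females as circles, males as squares and bars at the mean of 2 mice. Within each mouse the filled symbol lies above the open one, Fibin is lowest at P1, and Emp2 is lowest under hyperoxia.

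Outside the Car4+ and Car4- capillaries, Ednrb was detected more widely than the other members. To compare labels of different depth, each cell was thinned to 50000 reads, which left out 11 shallower cells. In Car4+ capillaries 98.2% of 332 cells then had a read of Car4, 98.8% of Ednrb, 82.2% of Tbx2, 59.6% of Fibin and 99.7% of Emp2 (98.2%, 99.4%, 87.3%, 60.8% and 99.7% at full depth). Ednrb was detected in 72.6% of Venous EC cells, 64.3% of Arterial EC II, 55.0% of Nonproliferative embryonic EC, 53.7% of Lymphatic EC, 51.5% of Proliferative EC and 44.1% of Arterial EC I. It was detected in 28.7% of Early Car4- and 13% of Late Car4- cells, the lowest shares of this receptor among the labels. By contrast, Car4 was detected in 7.96% of Venous EC, 2.15% of Arterial EC I and 1.22% of Lymphatic EC. In Early and Late Car4- cells, however, Car4 was detected in 26.6% and 32.6%, and Emp2 in 34.8% and 38.3%. Emp2 thus lay above Ednrb under both of these labels, and Car4 did so in Late Car4- cells. Fibin had a read in 28% of Lymphatic EC cells, against 1.49% in Venous EC and 0% of 93 Arterial EC I cells. In the lymphatic cells of the 4 mice with at least 8 of them Fibin was at 66.6 (female P1), 17.7 (male P1), 320 (female hyperoxia) and 109 CPM (male E18.5). Lymphatic EC thus had reads of Ednrb and Fibin in many cells and of Car4, Tbx2 (2.44%) and Emp2 (12.2%) in few.

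**Figure D2:**
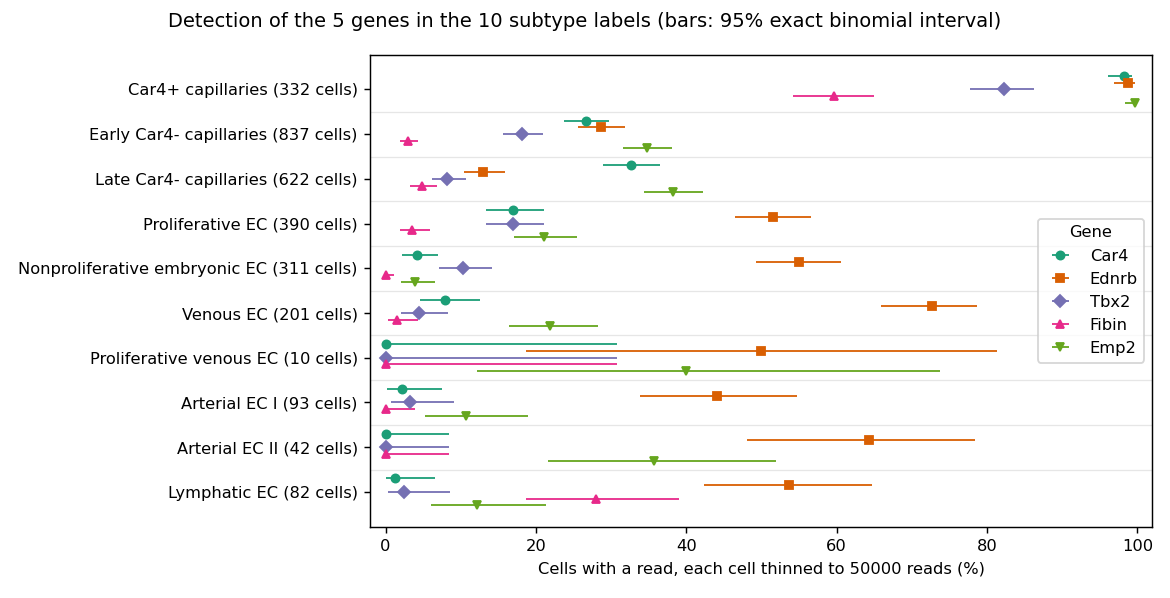
Share of cells with at least 1 read of each gene after thinning to 50000 reads per cell (horizontal axis, percent) for each subtype label (vertical axis, with the number of cells); bars are 95% Clopper-Pearson intervals, which cover counting error only. Ednrb spreads over many labels, whereas Car4, Tbx2 and Emp2 are far higher in Car4+ capillaries than in any other label.

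In Venous EC the Ednrb level differed between ages. It was 1736 CPM in the female and 1143 CPM in the male E18.5 mouse (11 cells each). At P1 it was 753 and 382 CPM, at P7 660 and 418 CPM, and under hyperoxia 380 and 439 CPM. The female P21 mouse had 41.0 CPM in 13 cells, and the male P21 mouse had only 4 venous cells and was not used. The P1 values lay below both E18.5 values, but the fall did not pass edgeR's quasi-likelihood test with Benjamini-Hochberg adjustment (log2 fold change −1.54, SE 0.53, adjusted p = 0.515).

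At least 4 of the 5 genes were detected together in most Car4+ cells and rarely so under other labels. After thinning, 305 of 332 Car4+ cells (91.9%, 95% interval 88.4% to 94.6%) had a read of at least 4 of the 5 genes. This was so in 61 of 837 Early Car4- cells (7.29%), 29 of 622 Late Car4- cells (4.66%), 17 of 390 Proliferative EC (4.36%) and 5 of 201 Venous EC (2.49%). All 5 genes were detected in 158 of the 332 Car4+ cells. By mouse that share ran from 11.8% (male P1) to 75.4% (female P21). The median Car4- cell had 0 reads of every member. The 85 Early Car4- cells with the highest level of a gene carried between 68.7% and 100% of its CPM summed over 841 cells, so the Car4- level comes from a minority of cells. Among Car4+ cells of 1 mouse the genes were hardly ordered by each other: Spearman correlations between members had medians over the 8 mice between −0.08 (Car4 with Tbx2, above 0 in 1 of 8 mice) and 0.20 (Ednrb with Fibin). They are given without a test, since cells of a mouse share libraries and depth.

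The change around birth was measured over all CD31-gate cells, whatever their label, since no E18.5 cell carried the Car4+ label. Emp2 and Car4 rose between E18.5 and P1. In a sum over cells, more cells of a type and more RNA per cell cannot be told apart. Emp2 was at 42.0 CPM in the female and 12.8 CPM in the male E18.5 mouse, and at 963 and 564 CPM in the female and male P1 mice. Car4 went from 68.6 and 32.3 CPM to 982 and 404 CPM. Both P1 mice stood far above both E18.5 mice for both genes. The log2 fold change was 4.80 (SE 0.65) for Emp2 and 3.75 (SE 0.61) for Car4, with adjusted p of 0.00856 and 0.0177 in edgeR's quasi-likelihood test (Benjamini-Hochberg over 16282 genes). Thus 2 of 5 members were called, against 0.362% of all genes tested (59 genes, 55 of them higher).

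The other members pointed the same way with less certainty. Tbx2 was at 45.7 and 15.5 CPM at E18.5 and at 174 and 89.5 CPM at P1 (log2 fold change 2.09, SE 0.54, edgeR adjusted p = 0.172). DESeq2 called Tbx2 as well (adjusted p = 0.0108), together with Car4 and Emp2, against 3.47% of genes called by that tool. Over all 18 alternatives the adjusted p of Tbx2 ran from 0.0108 to 0.615. Ednrb was at 388 and 397 CPM at E18.5 and 835 and 553 CPM at P1 (log2 fold change 0.79, SE 0.41, edgeR adjusted p = 0.602). The receptor was thus well above the other members before birth. Fibin had 1 read in the female E18.5 mouse and 3.22 CPM in the male one, against 47.4 and 4.30 CPM at P1, and was not called (edgeR adjusted p = 0.448). All 5 members had both P1 mice above both E18.5 mice, as did 18.7% of all genes.

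Leaving out 1 mouse at a time changed the calls. Without the female E18.5, female P1 or male E18.5 mouse the edgeR adjusted p of Car4 was 0.0890, 0.0696 and 0.185. Without the male E18.5 mouse the adjusted p of Emp2 was 0.0945 and that of Fibin 0.0451. The female E18.5 and P1 mice shared sequencing run DC23, and within it Emp2 went from 42.0 to 963 CPM and Car4 from 68.6 to 982 CPM. The CD31-gate cells of the male mice of these ages were in different runs.

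**Figure D3:**
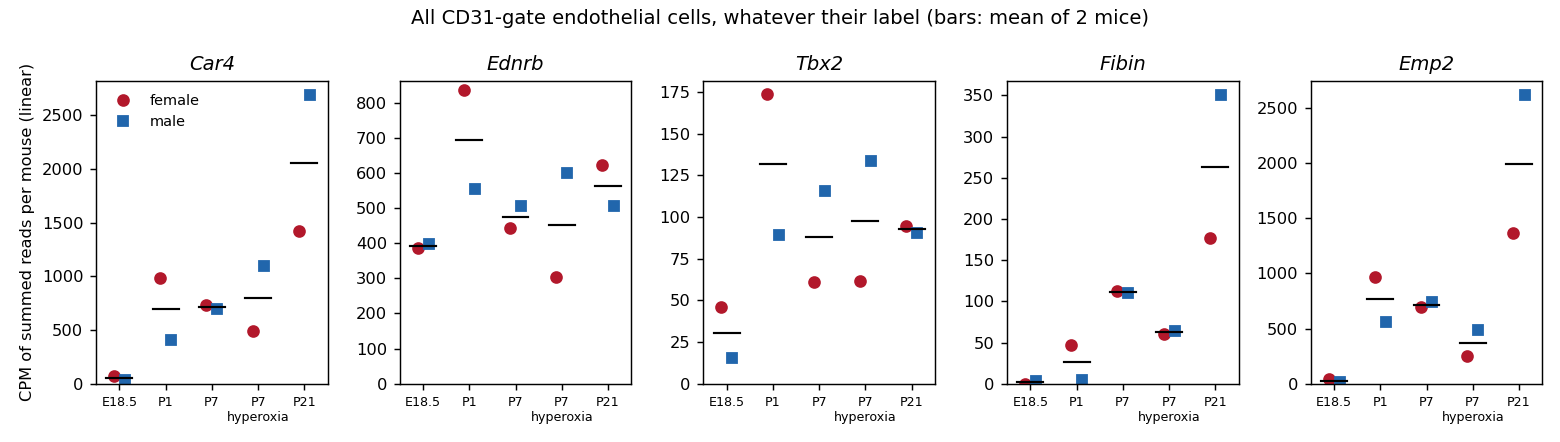
CPM of the 5 genes in reads summed over all CD31-gate cells of a mouse (vertical axis, linear, own scale for each gene) by group (horizontal axis), with females as circles, males as squares and bars at the mean of 2 mice. Both P1 mice lie above both E18.5 mice for every gene, and Fibin and Emp2 are lower under hyperoxia than at P7 in normal air.

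Later in postnatal life the CD31-gate sums of Car4 and Emp2 were higher again, without a call by edgeR. Car4 was at 732 and 694 CPM at P7 and at 1422 and 2684 CPM at P21 (log2 fold change 1.73, SE 0.56, edgeR adjusted p = 0.228). Emp2 was at 692 and 743 CPM at P7 and 1363 and 2611 CPM at P21 (1.68, SE 0.57, edgeR adjusted p = 0.250). DESeq2 called both, with adjusted p of 0.0343 and 0.0494. That tool called 5.45% of genes in this comparison, and edgeR 0.823%. Between P1 and P7, edgeR called 0 members and 0% of genes, while 0 members had an unadjusted p under 0.05 and 0 were called by DESeq2. The share of CD31-gate cells with at least 4 of the 5 genes, which does not use the labels, was 1.36% and 0% at E18.5 (4 of 294 cells in the female). It was 20.8% and 15.2% at P1, 13.8% and 17.8% at P7 and 19.9% and 18.9% at P21. A share of 0 of the 290 male E18.5 cells allows up to 1.03%. Cells with at least 4 genes thus made up 13.8% to 20.8% in the 6 normal-air mice from P1 on. Not all of them carried the Car4+ label, which 54 of 65 had in the female P1 mouse and 14 of 35 in the male one. The share with all 5 genes was instead lowest at P1 among these ages, at 3.53% and 1.30%, against 8.75% and 12.2% at P7 and 13.1% and 8.82% at P21.

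Within Car4+ capillaries the clearest difference with age was in Fibin. It was at 174 CPM in the female and 62.8 CPM in the male P1 mouse. At P7 it was at 888 and 619 CPM, and at P21 at 1038 and 1501 CPM. The groups did not overlap at either step, though with CD31-gate cells alone those of P7 (931 and 847 CPM) and P21 (860 and 1279 CPM) did. The share of Car4+ cells with a Fibin read was 22% and 17.6% at P1, 81.0% and 62.5% at P7 and 86.0% and 81.8% at P21. The median cell had 0 reads in both P1 mice, whereas at P21 it had 816 CPM in the female and 1317 CPM in the male. Over all gates the share of Car4+ cells with the transcript was thus higher at each later age. With CD31-gate cells alone it was 81.1% and 72.2% at P7 and 86.4% and 70.5% at P21, so these ages overlapped. The level in cells with a read was not constant either, and those of the male P1 mouse had 657, 96.8 and 12.7 CPM. The part of each in the age difference was not tested.

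The call for Fibin depended on the tool. P7 against P1 gave a log2 fold change of 2.85 (SE 0.53, unadjusted p = 0.000148, adjusted p = 0.730) in edgeR's quasi-likelihood test. DESeq2 called it (adjusted p = 8.69e-05), and over 16 alternatives the adjusted p ran from 8.69e-05 to 1.0, with 5 calls and a log2 fold change between 2.38 and 3.57. Without the female P1, female P21 or male P21 mouse edgeR's adjusted p was 0.0463, 0.0202 and 0.0112. EdgeR called 0 of 5 members and 0% of 12284 genes (772 at an unadjusted p under 0.05, among them the members Fibin and Car4), and DESeq2 1.98% of genes. With CD31-gate cells alone the male P1 mouse had 6.61 CPM of Fibin, since its only Car4+ cell outside that gate held most of the reads. The CD31-gate cells of the P1 and P7 mice shared no sequencing run, so run and age cannot be told apart among them. Male P7 cells of the mesench gate were in run DC35 with the male P1 mouse, but there gate and age differ together. In run DC23 alone, CD31-gate Car4+ cells of the female mice had 185 CPM of Fibin at P1 (20.7% of 58 cells) and 860 CPM at P21 (86.4% of 44 cells).

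**Figure D4:**
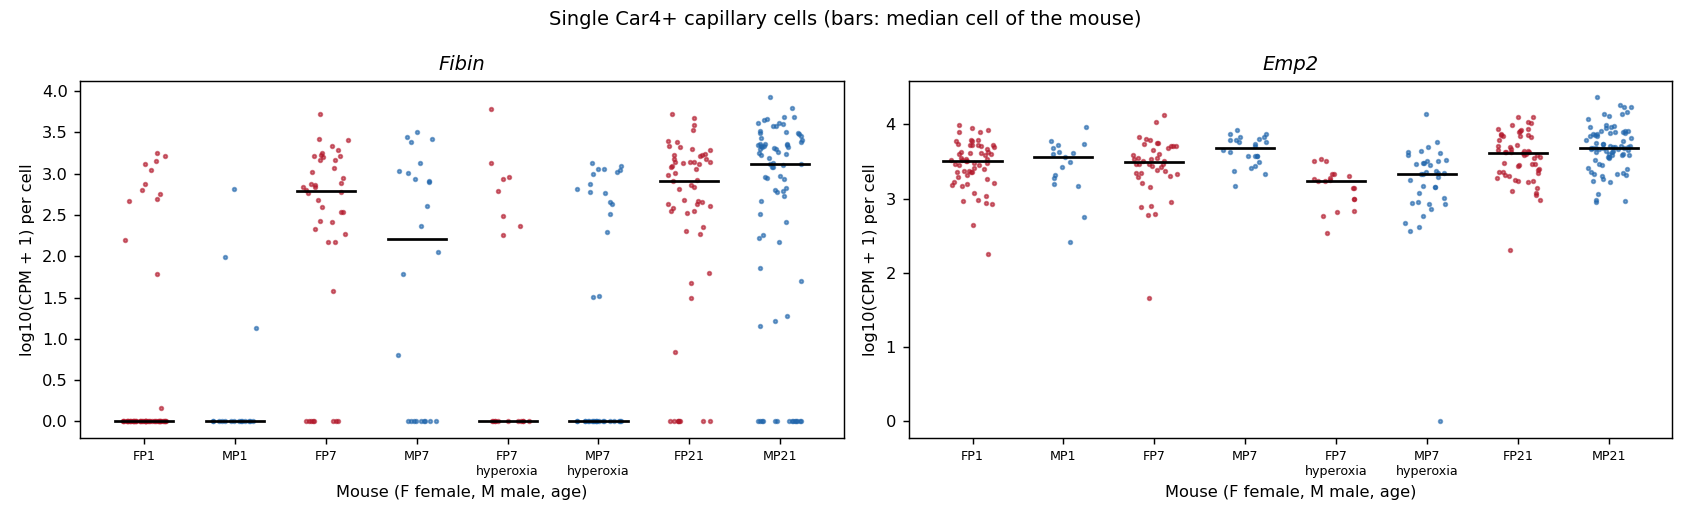
log10(CPM + 1) of Fibin and Emp2 in single Car4+ capillary cells (vertical axis) by mouse (horizontal axis; F female, M male), where each point is a cell and bars mark the median cell. Fibin is at 0 in many cells, with the median at 0 in both P1 and both hyperoxia mice. Nearly every cell has Emp2, and its median cell is lower in both hyperoxia mice than in both P7 mice in normal air.

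Differences with age were smaller for the other members in Car4+ capillaries. Tbx2 was at 701 and 657 CPM at P1, 473 and 501 CPM at P7 and 409 and 212 CPM at P21. It was the only member whose mice were lower without overlap at both steps, and this was lost with CD31-gate cells alone, where the P7 mice (386 and 832 CPM) overlapped both other ages. Neither step passed the test (log2 fold change −0.33, SE 0.48, and −0.76, SE 0.48; edgeR adjusted p = 0.932 and 0.877). In the male P21 mouse 64.9% of Car4+ cells had a Tbx2 read, against 89.5% to 100% in the other 7 mice. Car4 was at 4271 and 3397 CPM at P1 and 5092 and 9358 CPM at P7 (log2 fold change 1.12, SE 0.48, edgeR adjusted p = 0.730). The highest of these values came from the male P7 mouse, in which 6 cells of other gates held 61.5% of the Car4+ reads. With CD31-gate cells alone it had 5019 CPM. Ednrb lay between 2547 and 3344 CPM in the 6 mice in normal air, and Emp2 between 3029 and 5534 CPM. With CD31-gate cells alone Ednrb ran from 1609 CPM in the male P21 mouse to 3551 CPM. In that mouse 57.1% of the Car4+ reads came from cells of other gates.

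At P21 against P7 in Car4+ capillaries, edgeR called 0 of 5 members, against 0.00814% of genes (644 genes at an unadjusted p under 0.05, none of them a member), and DESeq2 called 0 members. Without overlap, 2 members (Car4 and Fibin) were higher at P7 than at P1 and 1 (Tbx2) was lower, where 12.9% and 18.6% of genes did so. At P21 against P7, 3 members (Ednrb, Fibin and Emp2) were higher and Tbx2 was lower without overlap, where 20.9% and 12.8% of genes did so. Whether the members differ from other genes in these shares was not tested. With CD31-gate cells alone all 4 of these overlapped, the fold change of Ednrb turned to −0.22, and Car4 was higher at P21 (5939 and 9337 CPM) than at P7 (5243 and 5019 CPM). In Car4- capillaries edgeR called 0 members at P7 against P1 (0% of genes) and at P21 against P7 (0.266%), and DESeq2 called 0 in both. Ednrb was the only member at an unadjusted p under 0.05 there, at P7 against P1. The difference between the P21 effects in Car4+ and Car4- capillaries was called for 0 members by edgeR (0.0068% of genes) and 0 by DESeq2, with only Car4 at an unadjusted p under 0.05.

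Under hyperoxia at P7, Emp2, Fibin and Ednrb were at lower levels in Car4+ capillaries without overlap of the mice, but no member passed the test. Emp2 was at 3408 CPM in the female and 4398 CPM in the male mouse in normal air, and at 1829 and 2004 CPM under hyperoxia (log2 fold change −1.31, SE 0.41, unadjusted p = 0.00684, edgeR adjusted p = 0.731). Fibin was at 888 and 619 CPM in normal air and 433 and 336 CPM under hyperoxia (−1.21, SE 0.50, edgeR adjusted p = 0.731). Ednrb was at 2547 and 3021 CPM against 1658 and 2163 CPM (−0.82, SE 0.42, edgeR adjusted p = 0.731). For these 3 genes both hyperoxia mice were below both normal-air mice. The groups overlapped for Tbx2 (473 and 501 against 386 and 606 CPM, means of 487 and 496 CPM) and for Car4 (5092 and 9358 against 3907 and 5481 CPM).

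All 5 fitted fold changes were below 0 (Tbx2 −0.24, SE 0.48), with a median log2 of −0.94 against −0.06 over all genes. The Car4 value (−0.94, SE 0.47, edgeR adjusted p = 0.731) was −0.12 with CD31-gate cells alone. EdgeR called 0 of 5 members and 0% of genes (757 genes at an unadjusted p under 0.05, among them Emp2 and Fibin), and DESeq2 called 0 members. Without overlap, 3 of 5 members were lower and 0 higher, where 12.4% of genes were lower and 19.8% higher. In sequencing run DC30, which held the male mice of both groups, CD31-gate Car4+ cells had 5067 CPM of Emp2 in normal air and 2004 CPM under hyperoxia. Fibin had 847 and 336 CPM there, Ednrb 3551 and 2163, Tbx2 832 and 606, and Car4 5019 and 5481. The lower Emp2, Fibin and Ednrb levels were thus present within that run, and the Car4 difference was not.

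Emp2 also lay lower under hyperoxia in Car4- capillaries and Venous EC, whereas the groups overlapped in Proliferative EC. In Car4- capillaries it was at 398 and 522 CPM in normal air and 152 and 293 CPM under hyperoxia (log2 fold change −1.06, SE 0.53, edgeR adjusted p = 0.887). In Venous EC it was at 116 and 101 against 36.0 and 44.8 CPM (edgeR adjusted p = 1.0), and in Proliferative EC at 180 and 458 against 324 and 253 CPM. EdgeR called 0 members in Car4- capillaries, against 0.0136% of genes. No member had an unadjusted p under 0.05 there (0 of 5), and DESeq2 called 0. The difference between the Emp2 effects in Car4+ and Car4- capillaries was −0.14 (SE 0.46, edgeR adjusted p = 1.0) and ran from −0.51 to 0.43 over the alternatives. For Car4 that difference was −1.18 (SE 0.41, unadjusted p = 0.0160, edgeR adjusted p = 1.0), with Car4 in Car4- capillaries at 175 and 405 CPM in normal air and 269 and 439 CPM under hyperoxia. EdgeR called this difference for 0 members and 0% of genes, with only Car4 at an unadjusted p under 0.05, and DESeq2 called it for 0 members. Over all CD31-gate cells Emp2 was at 692 and 743 against 250 and 482 CPM and Fibin at 113 and 110 against 60.3 and 64.4 CPM. These 2 members were lower without overlap there, where 15.9% of genes were, and edgeR called 0 members and 0% of genes. By unadjusted p under 0.05 the count was 0, and by DESeq2 also 0.

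Some markers of other cell types moved with the hyperoxia groups in Car4+ capillaries. The 6 alveolar type 1 markers summed to 71.3 and 40.3 CPM at P7 in normal air and to 228 and 299 CPM under hyperoxia, and ran from 111 to 283 CPM at P1 and P21. Only Ager (7.25 and 11.1 against 152 and 159 CPM, called by DESeq2 and not by edgeR) and Akap5 (1.78 and 2.33 against 48.2 and 58.0 CPM) separated the groups. Hopx, Aqp5 and Rtkn2 overlapped, and Pdpn was at 0 in 4 of 8 mice and at most 0.447 CPM. In Car4- capillaries the sum was 16.7 and 54.7 CPM in normal air and 104 and 92.1 CPM under hyperoxia. The 4 lymphatic markers summed to 568 and 1223 CPM in normal air and 2657 and 2269 CPM under hyperoxia in Car4+ capillaries, and to 911 and 911 against 4251 and 3924 CPM in Car4- capillaries. Over all 8 mice the Car4+ sum ran from 395 to 2657 CPM, nearly all of it Lyve1 and Flt4. Lyve1 was at 326 and 738 against 2190 and 1697 CPM, whereas Prox1, the defining lymphatic factor, was at 0 in 5 of 8 mice and at most 1.85 CPM. Emp2, which type 1 epithelium also makes, and Fibin, also found in Lymphatic EC, were lower in the P7 mice with the higher marker sums, and the part of such RNA in the member values was not tested.

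The frequency of the cells was compared between the P7 groups in CD31-gate cells. In CD31-gate cells the Car4+ label made up 11.6% and 9.0% in normal air and 7.17% and 14.6% under hyperoxia, a mean difference of 0.587 percentage points (exact 2-sided permutation test over mice, p = 1.000). The share with at least 4 of the 5 genes was 13.8% and 17.8% against 13.2% and 17.3% (difference −0.493 points, exact p = 0.667). These cells were of mixed labels. The Car4+ label was carried by 37 of 44 (female) and 17 of 35 (male) in normal air, and by 18 of 35 and 34 of 44 under hyperoxia. With all 5 genes required the share was 8.75% and 12.2% against 6.04% and 7.87%, without overlap (difference −3.51 points, exact p = 0.333). With 2 mice against 2 the smallest exact p is 0.333, so these tests could not pass 0.05.

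In Proliferative EC and Venous EC, edgeR called none of the members. In Proliferative EC, Car4 was at 24.4 and 13.6 CPM at E18.5 and 358 and 41.1 CPM at P1, and Emp2 at 68.3 and 20.1 against 413 and 113 CPM. EdgeR called 0 members and 0% of genes there (adjusted p = 0.450 for Car4 and 0.415 for Emp2), with Car4, Emp2 and Fibin at an unadjusted p under 0.05, and DESeq2 called these 3 members against 3.73% of genes. Fibin had 0 reads in both E18.5 sums and in the female P1 sum, and its fitted fold is no measure of size. At P7 against P1 and under hyperoxia in Proliferative EC, edgeR called 0 members (0% and 0% of genes). The counts were also 0 by unadjusted p under 0.05 and by DESeq2. In Venous EC, 0.0162% of genes and none of the members were called by edgeR between E18.5 and P1, where Car4, Tbx2 and Ednrb had an unadjusted p under 0.05. DESeq2 called 4.07% of genes there, with Car4 and Fibin among them. Car4 had 0 reads in both E18.5 venous sums and 38.0 and 24.7 CPM at P1. At P7 against P1 and under hyperoxia in Venous EC, edgeR called 0 members and 0% of genes (both comparisons), and 0 members had an unadjusted p under 0.05. DESeq2 called 0 members and, under hyperoxia, Fibin among 0.746% of genes, a gene with 100 reads in 1 of 4 mice and at most 1 in each of the other 3.

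Genes related to the members by pathway or family were not all arranged alike. In the endothelin system, the receptor Ednrb (2747 CPM in Car4+, 174 CPM in Car4- capillaries) and the ligand Edn1 (3.22 and 176 CPM) were found in opposite classes. Edn1 was lower in Car4+ capillaries in 8 of 8 mice. Ece1, which cleaves the endothelin precursor, was at 939 and 1413 CPM and lower in Car4+ capillaries in 8 of 8 mice, and the other endothelin receptor Ednra was higher in Car4+ capillaries in 3 of 8 mice. Ednra reached 23.1 CPM in the female P7 and 8.70 CPM in the male hyperoxia mouse, and at most 0.647 CPM in the other 6. Among the carbonic anhydrases, cytosolic Car2 was at 359 and 782 CPM and membrane-bound Car14 at 0.581 and 63.3 CPM, so both were lower in Car4+ capillaries in 8 of 8 mice where Car4 was higher. Among T-box genes, Tbx3, the closest relative of Tbx2, was at 579 and 225 CPM and higher in Car4+ capillaries in 8 of 8 mice. Among the relatives of Emp2, Pmp22 was at 4147 and 671 CPM and Emp1 at 536 and 361 CPM, both higher in Car4+ capillaries in 8 of 8 mice, whereas Emp3 was at 55.0 and 147 CPM and higher in 0 of 8.

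Of 10 further genes known from aerocytes, 8 were higher in Car4+ capillaries in all 8 mice. Among them were Kdr, the main receptor for VEGF-A (2270 against 561 CPM), and Apln, the ligand of the apelin receptor (593 against 110 CPM). Rprml was higher in 7 of 8 mice and Nckap5 in 0 of 8 (95.9 against 271 CPM). Of 10 general capillary genes, all 10 were lower in Car4+ capillaries in all 8 mice, for example Gpihbp1, which holds lipoprotein lipase at the vessel wall (273 against 2243 CPM), and Plvap, a protein of endothelial diaphragms (59.4 against 1651 CPM). EdgeR called none of the other genes of these 6 lists in Car4+ capillaries at P7 against P1, at P21 against P7 or under hyperoxia. By unadjusted p under 0.05 in these 3 comparisons there were 2, 1 and 2 of the 10 other aerocyte genes and 1, 4 and 1 of the 10 general capillary genes. Of the tested relatives there were 1, 0 and 0 of 3 endothelin genes, 1, 2 and 1 of 4 carbonic anhydrases, 0, 0 and 1 of 6 T-box genes and 0 of 3 EMP and PMP22 genes in each. DESeq2 called Edn1, Plvap and Car5b in all 3 comparisons and no other gene of the lists. Car5b was at 119 CPM in the male P7 mouse in normal air and at most 1.17 CPM in every other mouse. Edn1 was at 0 in both P7 mice in normal air. It reached 1.37 CPM (female P1), 7.23 CPM (female P21) and 17.2 CPM (male hyperoxia), with at most 0.0188 CPM in the other mouse of each group. Under hyperoxia in Car4+ capillaries the median log2 fold change was −0.27 over the other aerocyte genes, with 2 of 10 above 0, and 1.10 over the general capillary genes, with 8 of 10 above 0. The general capillary median was also −2.12 at P7 against P1 and 1.93 at P21 against P7. By these medians the P7 mice in normal air were thus low against the P1 and P21 mice as well. Plvap was at 5.14 CPM in the female and 0 in the male mouse in normal air and at 75.9 and 92.0 CPM under hyperoxia (edgeR adjusted p = 0.731). It was at 17.6 and 118 CPM in the female and male P1 mice and at 158 and 8.94 CPM in those of P21. Pmp22 was at 5026 and 4125 CPM in normal air and 4576 and 3960 CPM under hyperoxia (log2 fold change −0.35, SE 0.40, edgeR adjusted p = 0.951), so its groups overlapped where those of Emp2 did not.

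The genes whose pattern was most like each member were found over 50 sums of a mouse and a label, as Pearson's r of log2(CPM + 1) among 10140 genes. The sums share mice, runs and depth, so r is a description. The gene most like Car4 was Tbx2 (r = 0.915), and the gene most like Tbx2 was Car4. Emp2 came next for Car4 (r = 0.880), followed by Tex14 (0.843). Emp2 was followed most closely by Car4, Pmp22 (0.847) and Tbx2 (0.806). Fibin was most like the sulfotransferases Chst2 (0.843) and Chst1 (0.841), with Lmntd1 (0.798) after them. Tbx2 was further like 2610203C22Rik (0.851) and the growth factor gene Fgf1 (0.850). Ednrb stood apart: its nearest genes were Olfml2a (0.665), Abi3 (0.648) and Plpp3 (0.641), and it ranked 943 for Car4 (r = 0.373). Of the 10 other aerocyte genes, edgeR called 2 higher at P1 than at E18.5 in all CD31-gate cells, against 0.362% of genes. Cdkn2b of that list had a log2 fold change of 10.6, from 2.96 to 13.4 over the alternatives. Chst1 was called, at 3.20 and 1.47 against 70.8 and 14 CPM (edgeR adjusted p = 0.0177). Its adjusted p was 0.0951, 0.107 and 0.212 without the female E18.5, female P1 or male E18.5 mouse.

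Car4 and Tbx2, the most alike pair, lie on the same chromosome, 866506 bases apart, with 11 other counted genes between them. This interval was looked at after the values of the pair had been seen. Of these 11 genes none was higher in Car4+ capillaries in all 8 mice. Appbp2 was at 99.1 CPM in Car4+ and 104 CPM in Car4- capillaries, Usp32 at 19.4 and 25 CPM, and Ppm1d at 23.6 and 18.2 CPM. Bcas3, which fills much of the interval, was at 66.1 and 37.4 CPM and higher in 7 of 8 mice. The noncoding neighbour of Tbx2, 2610027K06Rik, was at 11.1 and 2.77 CPM and higher in 6 of 8 mice. The large gap between classes was thus seen at both ends of the interval, and the next largest among genes above 1 CPM was beside Tbx2.

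**Figure D5:**
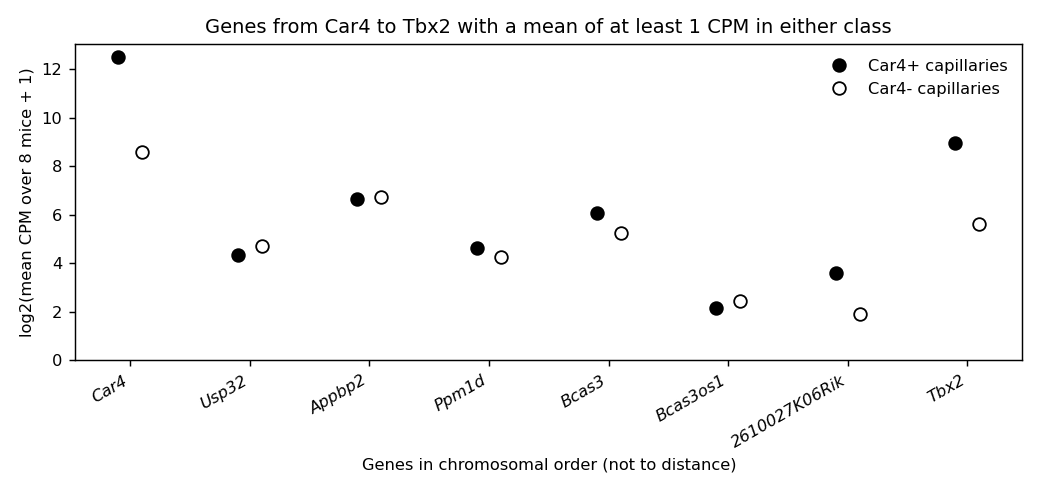
log2(mean CPM over 8 mice + 1) in Car4+ capillaries (filled) and Car4- capillaries (open) for Car4, Tbx2 and the genes between them with a mean of at least 1 CPM in either class, in chromosomal order along the horizontal axis and not to distance. Car4 and Tbx2 show the widest gaps, with 2610027K06Rik next.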

How the data were processed

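Reads per gene and cell were analysed as raw counts deposited by the authors, with no normalization. STAR 2.5.2b and HTSeq 0.10 are named in the submitters' processing notes, which also list a human genome build for these mouse cells and give no roles or settings. Strand use in counting is not given in the sources used here. Subtype label, mouse name, gate and run were taken from the labels. Whether mice are separate animals is not stated, so p-values measure the spread between mouse names.

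Counts were summed per mouse and class (at least 8 cells in both mice of a group) and scaled to CPM (reads per 1000000 reads of the sum). All genes were fitted with edgeR 4.0.16 (TMM, filterByExpr, quasi-likelihood F test, Benjamini-Hochberg, threshold 0.05), with all groups of a class in 1 model. The difference between classes was an interaction term with mouse in the model. Alternatives used DESeq2 1.42.0 and limma 3.58.1 (log2 of mean CPM + 1), RLE scaling, no low-count filter, thinned cells, CD31-gate cells, sex as a block, only the 4 mice compared, and each mouse left out. Low depth limits shares of cells with a read, and Clopper-Pearson intervals (95%) and the limit of 3 cells for a share of 0 cover counting error only, since PCR copies are not independent molecules. The scripts were tested on simulated counts in which 50 genes each were raised 2-, 4-, 8- or 16-fold. For P7 against P1 in Car4+ capillaries edgeR called 1, 0, 12 and 25 of them. For hyperoxia in that class it called 0, 3, 13 and 25, and for P1 against E18.5 in CD31-gate cells 0, 12, 21 and 35. A gene not called may thus still have changed several-fold.

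The members and gene lists were chosen with earlier results of these data known. Named were the 5 members, the 4 most abundant genes of each list in Car4+ capillaries and any that were called, and the 3 genes most like each member. Likeness used genes with at least 50 CPM in some sum. Apln, Car14, Rprml, Nckap5 and the genes between Car4 and Tbx2 were named after their values were seen. No column was left unused.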

Additional observations from a re-analysis of the deposited data

How the results depend on the processing

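The number of members called moved with the tool, the filter and single mice. In Car4+ capillaries at P7 against P1, 1 member was called by DESeq2 and 1 without a low-count filter, in place of 0, and 0 to 1 with a mouse left out. In Proliferative EC at P1 against E18.5, DESeq2 called 3 and the fit without a filter 3, with 0 to 2 when a mouse was left out; at P7 against P1 that range was 0 to 1. In Venous EC at P1 against E18.5 these counts were 2, 1 and 0 to 1, and under hyperoxia DESeq2 called 1. In all CD31-gate cells at P1 against E18.5, 1 to 2 members were called with a mouse left out, and at P21 against P7 DESeq2 called 2. Over all genes, edgeR called 0 to 134 per comparison and DESeq2 75 to 887.

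All reversed fold changes were of members not called in that comparison. Ednrb in Car4+ capillaries at P7 against P1 was 0.0056 with DESeq2 and 0.0056 with RLE scaling, and −0.33 to 0.29 with a mouse left out; Emp2 there ranged from −0.011 to 0.64 with a mouse left out. Car4 at P21 against P7 was 0.33 with limma, 0.022 without a filter, 0.46 with thinned cells, 0.81 with CD31-gate cells and −0.47 to 0.71 with a mouse left out. Ednrb there was −0.045 with limma, −0.22 with CD31-gate cells and −0.093 to 0.45 with a mouse left out. Tbx2 under hyperoxia ranged from −0.59 to 0.15 with a mouse left out. The Emp2 difference between Car4+ and Car4- capillaries under hyperoxia was 0.43 with limma, 0.39 with thinned cells, 0.053 with CD31-gate cells and −0.51 to 0.24 with a mouse left out. The share labelled Car4+ under hyperoxia minus normal air was −1.06 points over all gates. The cause of these shifts was not tested. Of the fold changes recomputed for the members, Chst1, Cdkn2b and Fgf1, 444 kept direction and side of the threshold, 24 reversed, 15 lost a call and 7 gained one.

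Sex was used as the replicate number of a paired fit. With sex as replicate block, Car4 in Car4+ capillaries at P21 against P7 was 0.0033, and no count of members called changed. Deviations of same-sex mice correlated between groups at −0.091 to 0.145 in Car4+ capillaries (over 0.1 in 2 of 6 pairs of groups) and −0.256 to 0.475 in all CD31-gate cells (8 of 10), so sex was not taken to pair the mice, since not every pair was over 0.1.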
